A study of Mus musculus with 20 samples.

Results

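The enzymes of glycolysis were followed in Hepa1-6 cells, a mouse hepatoma line, while the glutamine of their medium was varied. The members were 7 genes, Pfkl, Aldoa, Tpi1, Gapdh, Pgk1, Pgam1 and Pklr, taken by their symbol in the array's annotation. They were represented by 24 of 17280 probes, and the annotation names 13406 genes in all. Gapdh had 17 probes, Pfkl 2 and each other member 1. Each of the 20 two-colour arrays set RNA of flasks with varied glutamine (labelled Cy5) against RNA of control flasks kept at 4 mM glutamine (labelled Cy3). Both kinds of flask held DMEM with 25 mM glucose and 10% CPSR-3, a serum replacement, and were started at confluency. Flasks with varied glutamine began at 0 mM, and the level was changed at medium exchanges after 24, 48 and 72 h of a course of 96 h. The arrays covered 11 numbered time points, 9 with 2 arrays and 2 with 1. The labels give neither the hour nor the glutamine level of a time point, nor whether its second array, titled with an r, came from another flask. The p-values that rest on the spread between arrays of a time point may therefore measure technical spread only. Those of the mean over time points and of pairs of members rest on the spread over time points.

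Glycolysis splits glucose into pyruvate, which the cell reduces to lactate or passes to the mitochondria. Phosphofructokinase commits the sugar to the pathway, aldolase and triose phosphate isomerase turn it into triose phosphates, and the later enzymes draw ATP and NADH from these. Hepatoma cells run the pathway strongly, and in such cells glutamine is a second fuel that enters the mitochondria by another route.

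Every value is a log2 ratio after the median of its array was subtracted, and base 2 is an assumption. A ratio above 0 likely means more of the transcript in the flasks with varied glutamine, since the labels list that RNA as the first channel. A ratio shows no level, so members were not ranked by abundance. Arrays gave values for 4269 to 8269 probes, and intensities were not used here. In whole cultures, fewer expressing cells and less RNA per cell cannot be told apart. The r-titled arrays of time points 6 and 10 stood apart, with correlations across probes of at most 0.054 with the other 18 arrays, against 0.518 to 0.691 between arrays of 1 time point at the other 7 such points. At 1 probe number in every 20, the first of each run, spots were raised to a median of 2.72 at time point 5 and 1.28 on the first array of time point 6. Unless stated otherwise, values below come from 18 arrays without those spots, and the main tests of the members are also given on all 20 arrays with all spots. The only probe of Pgk1 and 1 of the 2 Pfkl probes lie at such positions, so Pgk1 has no value in the first set and Pfkl is read from its probe 16934. Of 14 hepatocyte and hepatoma markers, 11 had a probe and 8 gave a value on 9 or more arrays, among them albumin (Alb, on 11 arrays). Alpha-fetoprotein (Afp) gave none. Of 8 macrophage markers 6 had a probe, and of 3 red blood cell markers 1 had a probe. In both lists 0 gave a value on 9 or more arrays. Of 6 endothelial markers, 4 had a probe and 1 gave such a value. All 8 fibroblast or stellate markers had a probe, and 3 gave such a value. A marker without a probe could give none.

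The mean over the time points, tested against 0 with limma, asked which members lay off the median probe on average. Pfkl, Gapdh, Pgam1 and Tpi1 were lower, Aldoa was higher, and Pklr was not called (Benjamini-Hochberg adjusted p under 0.05). These are 4 lower and 1 higher of 6 members, where 12.8% of 4277 genes tested were called lower and 19.6% higher. The median of the 6 means was -0.36, against 0.02 over all genes. The labels name no dye swap, so a dye bias of a gene and a constant difference between flasks cannot be told apart in this mean. Without centring, which moves the median of all genes by 0.26, 67 genes were called lower and 2845 higher. Pfkl (-0.68) stayed lower there, and Aldoa (0.51) was higher, as were most genes. Gapdh (-0.28, adjusted p 0.0583), Pgam1 (-0.16, adjusted p 0.0912) and Tpi1 (-0.05, adjusted p 0.648) were then not called. The calls thus speak of a position relative to the median probe.

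On all 20 arrays limma called Pgam1 (-0.32), Tpi1 (-0.27) and Pklr (-0.27) lower and Aldoa (0.30) higher, where 9.05% of genes were lower and 13.6% higher. Pfkl, at -0.48 ± 0.90 (SD, n = 11 time points, limma adjusted p 0.170), and Gapdh, at -0.34 ± 0.49 (n = 11, adjusted p 0.0827), were not called there. All Gapdh values on 20 arrays take in the r-titled array of time point 10, where 2 of its probes read 16.87. The Gapdh mean of that time point was 0.40 with this array and -1.36 without it. This Pfkl value averages both probes, and probe 16934 alone was at -1.0 on 20 arrays and was called (limma adjusted p 0.00207). The test treats time points as independent, although neighbouring ones can resemble each other.

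**Figure D1:**
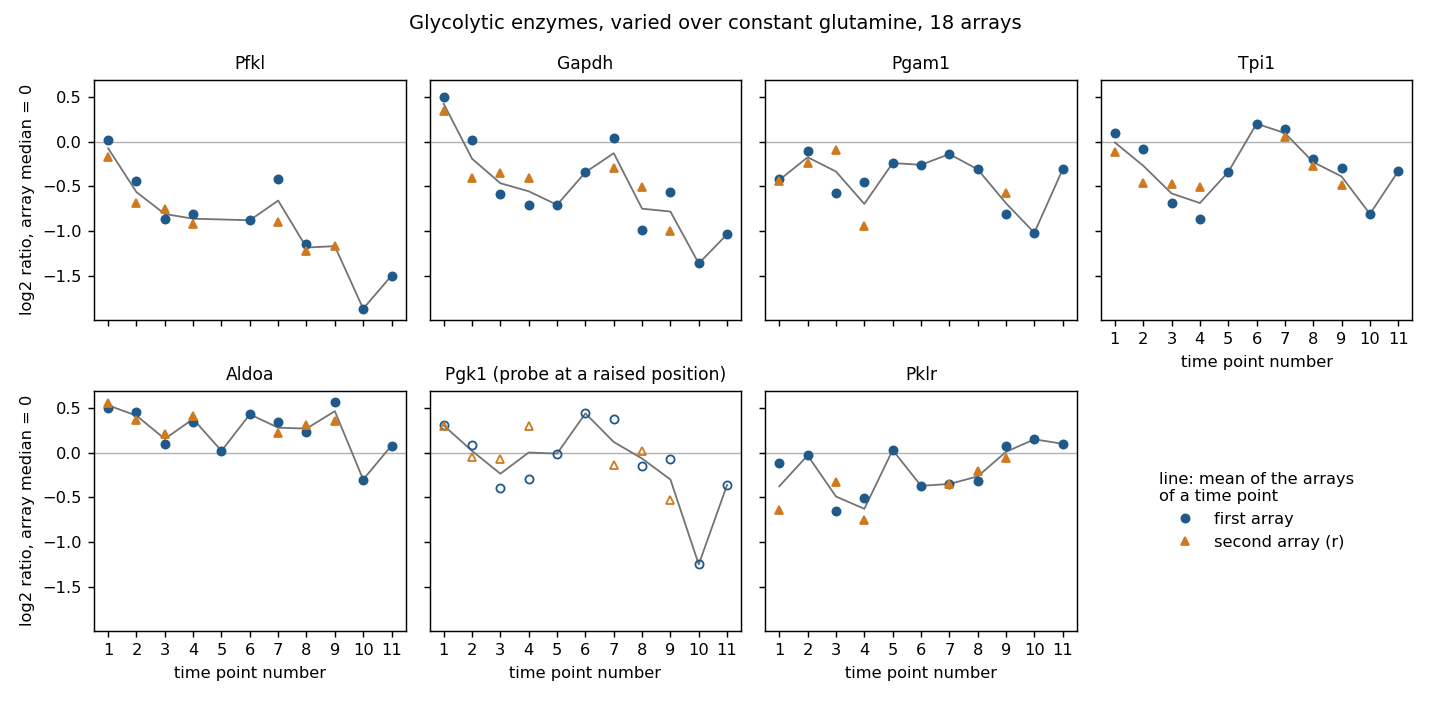
The log2 ratio (varied over constant glutamine, centred on the array median; vertical axis) of each of the 7 enzymes against the time-point number (horizontal axis), with a dot for each of 18 arrays and a line through the time-point means. Pfkl and Gapdh reach their lowest values at time point 10, at -1.87 and -1.36, whereas Aldoa lies above 0 at 10 of 11 time points; Pgk1 is drawn from its probe at a raised position.

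Phosphofructokinase catalyses the step that commits sugar to glycolysis, and Pfkl encodes its liver subunit. At time points 1 to 4 the arrays gave 0.02 and -0.17, -0.44 and -0.69, -0.87 and -0.75, and -0.80 and -0.92. Time point 6 gave -0.88, time point 7 gave -0.42 and -0.90, and time point 8 gave -1.15 and -1.22. The single values of time points 9, 10 and 11 were -1.17, -1.87 and -1.50, and time point 5 gave none. All but the first array thus lay below 0. The mean was -0.96 ± 0.50 (SD, n = 10 time points, limma adjusted p 0.000139), negative at 10 of 10. It ranked 3 from the lowest among 4277 genes.

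Glyceraldehyde 3-phosphate dehydrogenase, encoded by Gapdh, oxidises triose phosphate and passes electrons to NAD. Its arrays gave 0.50 and 0.34 at time point 1, then 0.02 and -0.41 at 2, -0.58 and -0.35 at 3, and -0.71 and -0.41 at 4. Time points 5 and 6 gave -0.71 and -0.34, and time point 7 gave 0.04 and -0.30. The values were -0.99 and -0.51 at time point 8 and -0.57 and -1.0 at 9, with -1.36 at 10 and -1.04 at 11. Gapdh was therefore positive on both arrays of time point 1 and negative from time point 8 on. The mean was -0.54 ± 0.48 (SD, n = 11, limma adjusted p 0.00382), negative at 10 of 11 time points.

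The sequences just before the transcription start are given for these 2 members, whose profiles were the most alike, and for Aldoa, the member on the other side of 0. They are the 250 bases before a RefSeq start in GRCm38.p6, all on the minus strand, 5′ to 3′, at chr10:78009808-78010057 for Pfkl, chr6:125165774-125166023 for Gapdh and chr7:126799179-126799428 for 1 of 3 Aldoa starts. Capitals mark matches, on either strand, to the hypoxia-response core ACGTG and the GC box GGGCGG. The E-box CACGTG, which contains the core, and TATAAA were searched too.
Pfkl: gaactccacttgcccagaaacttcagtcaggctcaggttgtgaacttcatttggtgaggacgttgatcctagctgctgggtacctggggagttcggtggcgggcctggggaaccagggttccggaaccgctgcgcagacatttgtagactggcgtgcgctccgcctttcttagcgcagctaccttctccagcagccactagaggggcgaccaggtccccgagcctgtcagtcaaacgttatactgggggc
Gapdh: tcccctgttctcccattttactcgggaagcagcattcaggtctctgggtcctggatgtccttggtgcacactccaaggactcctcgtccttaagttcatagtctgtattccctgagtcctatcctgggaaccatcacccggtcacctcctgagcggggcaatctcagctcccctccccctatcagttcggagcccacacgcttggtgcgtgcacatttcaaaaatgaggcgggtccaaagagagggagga
Aldoa: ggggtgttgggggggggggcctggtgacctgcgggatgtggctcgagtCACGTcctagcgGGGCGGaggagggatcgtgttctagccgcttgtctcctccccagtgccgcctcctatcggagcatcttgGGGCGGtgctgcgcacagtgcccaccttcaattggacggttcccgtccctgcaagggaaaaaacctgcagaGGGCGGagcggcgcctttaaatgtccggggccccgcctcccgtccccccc
Neither Pfkl nor Gapdh held any of these 4 motifs in this window, and this Aldoa window held 1 ACGTG core and 3 GC boxes. The printed window is the Aldoa one with the most matches. Of the other Aldoa windows, 1 overlaps it and held 1 core and 2 GC boxes, and 1 held none, like those of Pfkl and Gapdh. Among 32851 mouse promoter windows of this length, 6.02% held the E-box, 16.6% the core, 32.7% the GC box and 12.4% TATAAA. Pgam1 held 1 core, Pgk1 held 2 cores and 1 GC box, and Tpi1 held 1 GC box. Of 2 Pklr windows, 1 held TATAAA and the other none of the motifs. A match describes these letters only.

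Aldolase A (Aldoa) cleaves fructose bisphosphate into triose phosphates. Its arrays gave 0.50 and 0.56 at time point 1, then 0.46 and 0.37 at 2, 0.10 and 0.21 at 3, and 0.34 and 0.41 at 4. Time points 5 and 6 gave 0.02 and 0.43. The later pairs were 0.34 and 0.22, 0.23 and 0.31, and 0.57 and 0.36 at time points 7, 8 and 9. Time points 10 and 11 gave -0.30 and 0.08. Only time point 10, a single array here, was negative. The mean was 0.25 ± 0.24 (SD, n = 11, limma adjusted p 0.0152). The SD between arrays of 1 time point, which does not enter this test, was 0.0815. It was the smallest of the 6 members, against a median of 0.183 over all genes.

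Triose phosphate isomerase (Tpi1) interconverts the triose phosphates. Its arrays ranged from -0.86 on the first array of time point 4 to 0.20 on that of time point 6. Time-point means were -0.01, -0.27, -0.58 and -0.69 at time points 1 to 4, then -0.34, 0.20 and 0.10 at 5 to 7. They were -0.23, -0.39, -0.81 and -0.33 at time points 8 to 11. Tpi1 was thus low around time points 3 and 4, near or above 0 at 6 and 7, and low again at 10. Its mean was -0.30 ± 0.32 (SD, n = 11, limma adjusted p 0.0133), negative at 9 time points. With centring by block of 540 neighbouring probes in place of the whole array, it was -0.08 and not called (adjusted p 0.410).

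Phosphoglycerate mutase (Pgam1) moves the phosphate group of phosphoglycerate before the enolase step. Its means were -0.43, -0.18, -0.34 and -0.70 at time points 1 to 4, -0.24, -0.26 and -0.14 at 5 to 7, and -0.31, -0.69, -1.02 and -0.31 at 8 to 11. Single arrays ran from -1.02 to -0.09, so every one was below 0. The mean of -0.42 ± 0.27 (SD, n = 11) had a limma adjusted p of 0.000922 and was negative at 11 of 11 time points.

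Pyruvate kinase makes pyruvate and ATP at the end of the pathway, and Pklr encodes its liver and red cell form. The means of Pklr were -0.38, -0.03, -0.49 and -0.63 at time points 1 to 4, and 0.03, -0.37 and -0.35 at 5 to 7. From time point 8 to 11 they were -0.26, 0.01, 0.15 and 0.10. Pklr thus lay between 0.01 and 0.15 at the last 3 time points, where Gapdh had its 3 lowest means. The mean of -0.20 ± 0.26 (SD, n = 11, limma adjusted p 0.0502) was negative at 7 time points and not called. It was called without time point 5, 10 or 11, in 3 of 11 fits that left out 1 time point (adjusted p 0.0281 to 0.124).

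Phosphoglycerate kinase (Pgk1) makes the first ATP of the pathway. Keeping the raised positions except at time points 5 and 6, a setting chosen after seeing the data, gave means of 0.31, 0.02, -0.24 and 0.00 at time points 1 to 4. It gave 0.12, -0.07, -0.30, -1.25 and -0.36 at time points 7 to 11. Only the single array of time point 10 stood far below 0. The mean was -0.20 ± 0.45 (SD, n = 9, limma adjusted p 0.238), where 12.8% of genes were lower. On all 20 arrays it was -0.06 ± 0.31 (SD, n = 11, limma adjusted p 0.663). The time points differed (limma F-test adjusted p 4.01e-05, where 31.2% of genes were called), and late minus early was -0.10 (SE 0.11, adjusted p 0.628). None of the 7 time points with 2 arrays was called for Pgk1 (limma adjusted p 0.119 to 0.987).

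**Figure D2:**
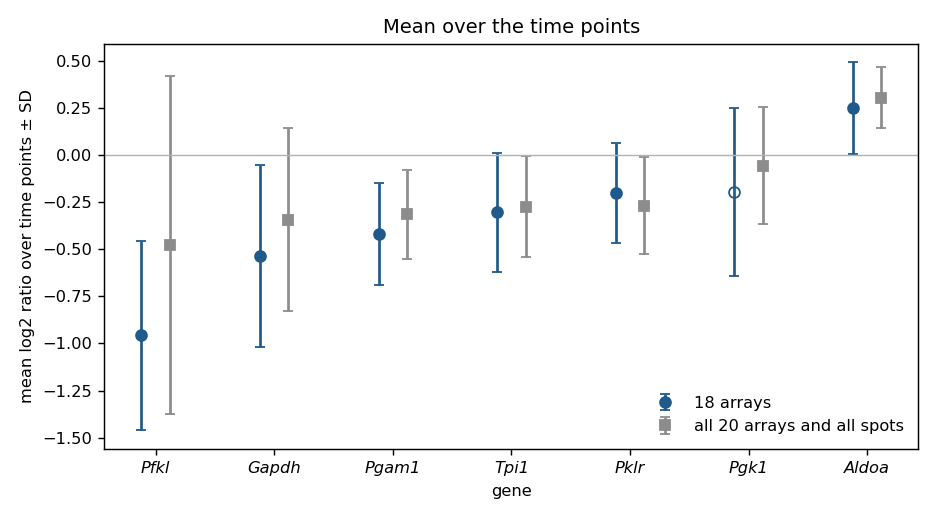
The mean log2 ratio over time points (vertical axis; bars are the SD over time points) for each enzyme (horizontal axis) on 18 arrays (circles) and on all 20 arrays (squares). Aldoa is the member above 0 in both sets, and the Pfkl mean moves from -0.96 to -0.48 when the other 2 arrays and all spots, and with them its second probe, are taken in; the open circle of Pgk1 leaves out time points 5 and 6.

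Members were set against each other by exact two-sided sign-flip tests over shared time points, with p-values adjusted over the 15 pairs that could be formed without Pgk1. The smallest p that 11 time points allow is 0.000977. Pfkl was lower than Gapdh by 0.44 at 10 of 10 shared time points (exact adjusted p 0.00488). It was also lower than Pgam1 by 0.52, Tpi1 by 0.66 and Pklr by 0.73 (exact adjusted p 0.0110 or less). Aldoa was higher than each of the other 5, with exact adjusted p of 0.0244 against Pklr and 0.00488 against each of the others. Among Gapdh, Pgam1, Tpi1 and Pklr no pair was called, with exact adjusted p from 0.101 to 0.465. Aldoa thus stood at one end and Pfkl at the other, and the 4 between them were not separated. On all 20 arrays Aldoa was called above Gapdh, Pgam1, Tpi1, Pgk1 and Pklr and Tpi1 below Pgk1 (exact adjusted p 0.0444 or less), whereas no pair with Pfkl was called (Pfkl, here the average of both probes, against Aldoa, exact adjusted p 0.0908).

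The limma F-test asked whether the time points differed from each other, where a constant dye bias cancels. It called 5 of 6 members, with adjusted p of 1.14e-08 for Pfkl, 1.31e-08 for Gapdh, 0.00134 for Tpi1, 0.0286 for Pklr and 0.0443 for Pgam1, and 31.4% of all genes. Aldoa was not called (adjusted p 0.0922). For Gapdh the SD over time points was 0.48 and the SD between arrays of 1 time point 0.25. For Pfkl these were 0.50 and 0.17. Single arrays were left out only at time points 1 to 4 and 7 to 9. The array of time point 10, where Pfkl, Gapdh, Tpi1, Pgam1 and Aldoa had their lowest values, was thus in every such fit. The calls of Pfkl, Gapdh and Tpi1 were kept in each of 14 fits that left out 1 array, that of Pklr in 11 and that of Pgam1 in 7. Pklr was not called without the first array of time point 3 or 9 or the second of 4 (adjusted p 0.0559 to 0.0858). Pgam1 was not called without either array of time points 1 or 2, the second of 4 or 8, or the first of 9 (adjusted p 0.0517 to 0.121). With centring by block of probes Pgam1 was not called either (adjusted p 0.0623). With the replicate number as a block, 3 members and 1110 of all genes were called (1220 genes without it). Pgam1 (adjusted p 0.0514) and Pklr (adjusted p 0.0745) were not. On all 20 arrays limma called 0 of 7 members (adjusted p 0.0592 to 0.967) and 7% of genes.

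Single time points show when each enzyme lay off the median probe, again by limma with adjustment over all genes. At time point 1 Aldoa (0.53, adjusted p 0.00291) and Gapdh (0.42, adjusted p 0.0249) were higher, where 14.7% of genes were. Pgam1 (-0.43, adjusted p 0.0212) and Pklr (-0.38, adjusted p 0.0438) were lower, where 5.38% were. The members were thus split at the first sampling. At time point 2 Pfkl was lower (-0.56, adjusted p 0.00840), with 1.54% of genes lower and 2.32% higher. At time point 3 Pfkl (-0.81), Gapdh (-0.47), Tpi1 (-0.58) and Pklr (-0.49) were lower, with 4.38% of genes lower and 6.6% higher.

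Time point 4 had the most member calls. There Pfkl (-0.86), Pgam1 (-0.70), Tpi1 (-0.69), Pklr (-0.63) and Gapdh (-0.56) were lower, with limma adjusted p of 0.00257 or less, where 9.17% of genes were lower. Aldoa was higher (0.38, adjusted p 0.0307), where 15% of genes were. The control channel of 1 of its arrays is labelled as lacking glutamine, and this was taken for a labelling error. At time point 7 Pfkl alone was called (-0.66, limma adjusted p 0.000109), although 12.4% of genes were lower and 14.5% higher. Pfkl (-1.18, adjusted p 6.29e-10) and Gapdh (-0.75, adjusted p 0.000229) were lower at time point 8, with 3.2% of genes lower and 3.49% higher.

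At time point 9 Pfkl (-1.17), Gapdh (-0.78) and Pgam1 (-0.69) were lower, with limma adjusted p of 0.000360 or less, and Aldoa was higher (0.46, adjusted p 0.0165). Pfkl had a value on 1 array there, so its p assumes that this array varied like those of the other time points. There 4.82% of genes were lower and 4.84% higher. Tpi1 at -0.39 was not called (adjusted p 0.0550). Over the 7 time points, and with that single-array call, this made 18 lower and 4 higher member calls. Pfkl was lower at 6 of them and Gapdh at 4. With all 20 arrays limma called no member at any of these time points, in either direction. Without centring, which moves the median of all genes up by 0.26, there were 8 lower and 9 higher member calls. The shares of all genes at single time points are not given for that setting.

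Time points 7 to 9 were compared with 1 to 4 by number only, since their glutamine levels are not given. Gapdh went from -0.20 to -0.55, a difference of -0.36 (SE 0.11, limma adjusted p 0.0213), and Pfkl probe 16934 went from -0.58 to -1.01, a difference of -0.43 (SE 0.11, adjusted p 0.00773). These were 2 of 6 members, where 6.98% of genes were lower and 2.4% higher. The other 4 were not called, with differences of 0.21 for Tpi1 (SE 0.11), 0.18 for Pklr (SE 0.11), 0.03 for Pgam1 (SE 0.13) and -0.03 for Aldoa (SE 0.10) and limma adjusted p from 0.222 to 0.913. Without time point 1 neither call held, with -0.15 for Gapdh (adjusted p 0.488) and -0.26 for Pfkl (adjusted p 0.199). Without time point 8 the values were -0.26 (adjusted p 0.194) and -0.34 (adjusted p 0.115). Without time point 9 Gapdh was at -0.24 (adjusted p 0.233). The Gapdh call was also lost without the first array of time point 1, 2 or 8, or the second of 3, 4, 7 or 9, at -0.34 to -0.28 (adjusted p 0.0535 to 0.154). The Pfkl call was kept without any 1 array of the time points compared, with 1 exception. The second array of time point 9 holds the only value there, and without it no contrast could be formed. Tpi1 passed without time point 1 (0.34, adjusted p 0.0460). With time points 10 and 11 counted as late too, the differences were -0.61 for Gapdh and -0.70 for Pfkl, and Pklr was higher (0.31, adjusted p 0.0322). With all 20 arrays limma called 0 members lower in this contrast, and Gapdh was again at -0.36 (adjusted p 0.803).

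The 2 Pfkl probes did not go the same way. Probe 16934 is annotated with a cDNA clone record, and probe 9381, at a raised position, with the RefSeq transcript. Probe 9381 gave -0.31 and -1.13 at time point 1, then -0.60 and -0.04 at 2, -1.52 and -0.81 at 3, and -1.15 and -1.31 at 4. Later values, 1 array each, were -0.05, -0.08, 0.21 and 0.19 at time points 7, 8, 9 and 11. It was thus low early and near 0 late, whereas probe 16934 was at -0.58 early and lower still late, at -1.01. Its late minus early difference was 0.88 (SE 0.15, limma adjusted p 5.30e-06), where 2.47% of probes were called higher. The correlation of both probes was -0.17 over 11 arrays. Averaged, with probe 9381 left out at time points 5 and 6 (a setting chosen after seeing the data), they gave a late minus early difference of 0.07 (limma adjusted p 0.796) and a mean of -0.82 ± 0.44 (SD, n = 10, adjusted p 0.000167). With probe 9381 kept at those time points too, where it read 1.99 and 0.40, the mean of -0.51 was not called (adjusted p 0.122). The lower mean of Pfkl is thus shown for probe 16934, and for the average it depended on this choice. No direction from early to late can be given for the gene. Which probe follows the Pfkl transcript was not tested.

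**Figure D3:**
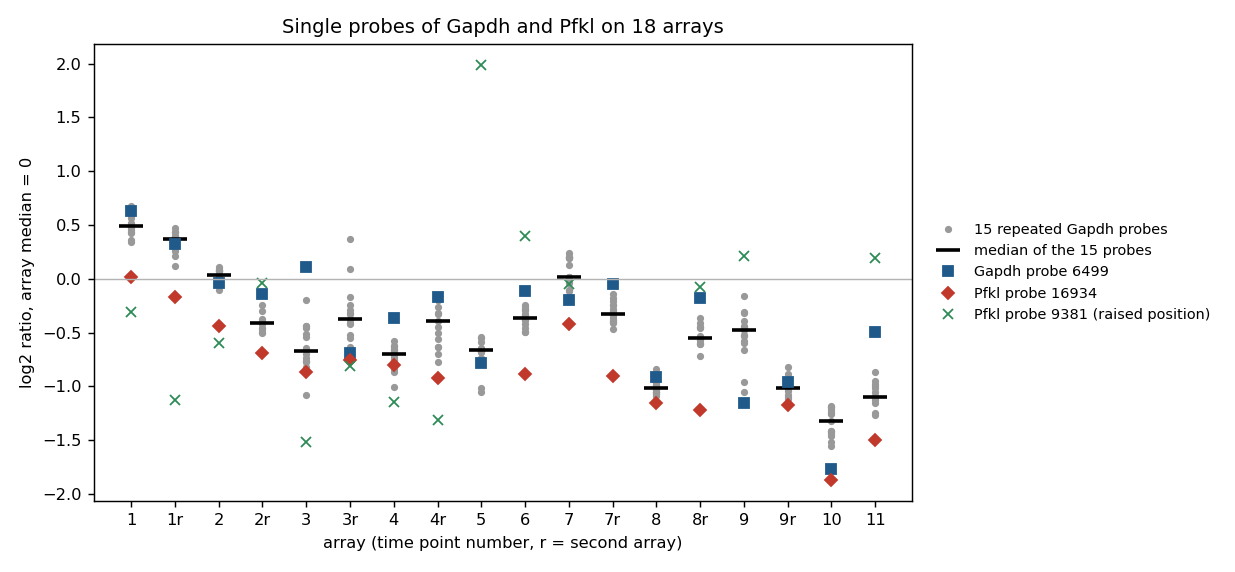
The log2 ratio (vertical axis) on each array, in order of time point (horizontal axis), for the Gapdh probes and for both Pfkl probes. Pfkl probe 16934 runs below the median of the Gapdh probes on 16 of 16 arrays and in parallel with it (r = 0.94), whereas probe 9381 runs from low early values to values near 0, apart from 1.99 at time point 5.

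The Gapdh probes moved together. Apart from probe 6499, there were 16 at probe numbers divisible by 60, of which 15 gave values. On an array, the SD between these 15 had a median of 0.11, whereas their median varied over the 18 arrays with an SD of 0.49. Their pairwise correlations over arrays lay between 0.771 and 0.988. Of 16 Gapdh probes tested alone, 16 were lower in the mean (-0.61 to -0.45), where 13.5% of probes were, and 13 on all 20 arrays. All 16 were called by the limma F-test, where 32% of probes were, and the late minus early difference was below 0 in 16 and called in 7, where 7.18% of probes were lower. These probes measure 1 transcript on the same arrays and are not replicates. Probe 6499 followed the median of the 15 with r = 0.781 over 18 arrays. In the r-titled array of time point 10, which is left out of the 18 arrays but not of the 20, 2 Gapdh probes read 16.87.

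Pfkl probe 16934 followed the Gapdh probes closely. Over 16 arrays its correlation with their median was 0.941, at a difference of -0.40 (SD 0.17). Over 10 time-point means the correlation of Pfkl with Gapdh was 0.987, the highest among 3737 genes. Such correlations share arrays and centring and are descriptions only. Next to Gapdh came the unnamed probe 8869 (0.962) and the hair keratin Krt31 (0.957) for Pfkl, and Krt31 (0.943) and the bile acid-binding protein Fabp6 (0.919) followed Pfkl for Gapdh. For Pgam1 the most alike genes were the sterol transporter Abcg5 (0.919), Ktn1 (0.885) and the vesicle fusion factor Napa (0.875). For Tpi1 they were probe 6889 (0.919), the cold-inducible RNA-binding protein Rbm3 (0.900) and probe 15412 (0.898).

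Aldoa was most like 4930414F18Rik (0.961), the RNA helicase Ddx19b (0.938) and Rgs12 (0.936), and Pklr most like Fbxl6 (0.950), the adhesion molecule Cadm3 (0.933) and the translation factor Eef1d (0.906). On all 20 arrays only probe 6889 for Tpi1 and Eef1d for Pklr were again among the 3 most alike. There Pgk1 was most like Klhl24 (0.939), the glucose transporter Slc2a1 (0.927) and Tmem239 (0.900). Among members, Pgam1 and Tpi1 correlated at 0.708 and Gapdh and Aldoa at 0.754, whereas Pklr ran against Pfkl (-0.617) and Gapdh (-0.578).

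Few other genes around the pathway gave enough values. Of 19 other glycolytic enzymes 9 had a value, and only the muscle mutase Pgam2 was tested in the mean (0.08, limma adjusted p 0.399). Among 10 genes of glucose import and lactate, 4 were tested and 2 were lower. These were Slc2a1, which brings glucose into the cell, at -0.43 ± 0.29 (SD, n = 10, limma adjusted p 0.00157), and Ldha, which reduces pyruvate to lactate, at -0.25 ± 0.16 (SD, n = 11, adjusted p 0.00341). The insulin-responsive transporter Slc2a4 (-0.19) and the lactate exporter Slc16a3 (-0.01) were not called. Of 6 regulators of glycolytic flux 2 were tested and 0 called, Pfkfb2 at 0.11 and the glucokinase regulator Gckr at 0.06. Of 14 genes of pyruvate entry into mitochondria 2 were tested and 0 called, the dehydrogenase subunit Pdhb at 0.08 and its phosphatase Pdp2 at 0.16.

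Side routes and regulators were mixed. In the pentose phosphate pathway 4 of 7 genes were tested, and the lactonase Pgls was lower (-0.19, limma adjusted p 0.0257) and the isomerase Rpia higher (0.22, adjusted p 0.00452), with Taldo1 at -0.14 and Tkt at 0.01. Of 8 gluconeogenic genes 2 were tested in the mean and 0 called. Fbp1, which reverses the phosphofructokinase step, was lower late than early by limma, at -0.41 (SE 0.12, adjusted p 0.0214), with a mean of -0.10. The glucose 6-phosphate transporter Slc37a4 lay at 0.05. Of 13 genes of glycogen and glycerol 4 were tested and 0 called in the mean, among them the glycerol phosphate dehydrogenases Gpd2 (0.27 ± 0.90, SD, n = 11) and Gpd1 (-0.18). The glycogen enzymes Gys2 (0.10) and Gbe1 (0.09) were the others.

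Of 18 transcription factors known to act on glycolytic genes, 7 were tested and 0 called in the mean by limma. Myc lay at 0.48 ± 0.80 (SD, n = 10, adjusted p 0.0844) and the E-box factor Usf2 at 0.15. The limma F-test called 3 of these 7 factors for differences among time points. They were Myc (adjusted p 4.25e-15), Max (adjusted p 5.30e-15) and Usf2 (adjusted p 0.0424). It called 31.4% of all genes. Hif1a, the oxygen-regulated subunit, lay at -0.17 and Foxo1 at -0.19. Over the 8 neighbouring lists together, 3 of 26 genes tested were lower and 1 higher in the mean, where 12.8% of all genes were lower and 19.6% higher. Late minus early called Fbp1 alone, of 23 tested, where 6.98% of genes were lower. Slc2a1, Ldha, Pgls and Rpia were called again on all 20 arrays, with the same sign (limma adjusted p 0.00782 to 0.0266). The means of Fbp1 (0.77), Pdhb (-0.01), Gckr (-0.01) and Slc16a3 (0.04) changed sign there and were not called in either set. Among the marker lists, 8 hepatocyte and hepatoma markers were measured, of which Krt18 was not tested in the mean. Of these markers 3 were lower and 1 higher. Of 3 measured fibroblast or stellate markers, 1 was lower and 1 higher. Over all genes 12.8% were lower and 19.6% higher. The part of these markers in the member calls was not tested.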

How the data were processed

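RNA of Hepa1-6 cells was hybridised to 20 two-colour spotted arrays, per the labels. The deposited values, 1 column per array, were read as log2 ratios between the channels. Their base, direction and normalization by the authors are not given in the sources used here, nor is a genome build. Column medians of 0.05 to 0.435 show that they were not centred on the median, so each array was centred for this work. Gene symbols came from the platform annotation (1 symbol for 14718 of 14719 listed probes), and probes of a gene were averaged.

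Tests used limma 3.58.1 in R 4.3.3 over all genes, with Benjamini-Hochberg adjusted p under 0.05 as called. The mean needed 9 or more time points. The F-test, late minus early and single time points needed 14 or more of 18 arrays (16 of 20). Pairs of members were tested by exact sign flips. Promoter windows are RefSeq's (GRCm38.p6), and all 7 members matched. The scripts were tested on simulated data.

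The members, lists and tests were chosen with earlier results of these data known. Genes named are the members, called genes of the lists with up to 4 others of largest mean, and the 3 genes most like each member. Alternatives were other array and spot sets, centring, value minimums, a replicate block, other late contrasts, and leaving out each array or time point. The number of arrays limits precision.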

Additional observations from a re-analysis of the deposited data

Results flagged for a closer look

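Of 6 members tested, 2 passed the limma test of the difference between time points 7 to 9 and time points 1 to 4. In the neighbouring pathway lists 1 of 23 genes tested passed it, as did 344 of all 3667 genes tested. Pfkl, read from probe 16934, differed by -0.43 (adjusted p 0.00773), and its other probe went the opposite way. Gapdh differed by -0.36 (adjusted p 0.0213), with all 16 of its tested probes below 0. The gluconeogenic enzyme Fbp1 differed by -0.41 (adjusted p 0.0214) and had values on 14 of 18 arrays. The labels give no glutamine level for these time points.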

How the results depend on the processing

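The means of Aldoa (above 0) and of Pfkl, Gapdh, Pgam1 and Tpi1 (below 0) kept their direction under each alternative run. Of all genes, 546 were lower and 837 higher in the mean. Without centring, 1 member and 67 genes were lower and 2845 genes higher, the mean of Pklr turned to 0.0541, and single time points had 8 lower and 9 higher member calls against 18 and 4. With 6 or more time points required, 850 genes were lower, and with all 11 required, 250. All 20 arrays with all spots gave 0 members and 262 genes called by the F-test (5 and 1220 before), 0 members lower and 33 genes called late minus early (2 and 344 before), and 0 lower and 0 higher single time-point calls. Late minus early of Pfkl was 0.0690 there, and also with the raised spots kept on 18 arrays or left out at time points 5 and 6 alone, where 1 member was lower. Values on all 18 arrays left 2 members and 675 genes in the F-test and 1 member and 228 genes late minus early, with fewer genes tested. The replicate block, which no label supports as a pairing, left 3 members and 1110 genes in the F-test. Centring by block of 540 probes gave 7 higher single time-point calls and a late minus early of 0.0481 for Aldoa, and it ended the mean call of Tpi1 (-0.0809) and the F-test call of Pgam1 while Pklr (-0.250) was called lower. Time points 7 to 11 minus 1 to 4 called 542 genes, with Pgam1 at -0.0846 and Pklr called higher (0.310). A slope over time-point numbers called 0 members and 0 genes, with Pgam1 at -0.0270 and Tpi1 at -0.0167 per step. Arrays were left out only at time points 1 to 4 and 7 to 9, as were time points for late minus early. Leaving out 1 array gave 3 to 5 members and 1009 to 1404 genes in the F-test. Leaving out 1 array or time point gave, late minus early, 0 to 2 members, 125 to 359 genes, -0.0906 to 0.184 for Pgam1 and -0.103 to 0.0225 for Aldoa. The causes were not tested. Gapdh, Tpi1 and Aldoa gave values on all 18 arrays and the others on fewer, and time points 5, 6, 10 and 11 rest on 1 array.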
